A study of Mus musculus with 24 samples.

Results

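The 9 genes described here encode enzymes that make, recycle, use and break down glutathione, the tripeptide of glutamate, cysteine and glycine (Gclc, Gclm, Gss, Gsr, Gpx1, Gpx4, Chac1, Chac2 and Oplah). They were taken by name, with earlier results of these data known, and all 9 of 9 were found among the 9049 genes of the deposited table. RNA was measured in whole liver of 24 male C57BL6/J mice aged 2 months, 6 in each of 4 groups named MR 3 h, Con 3 h, MR 6 h and Con 6 h. MR is methionine restriction, a diet of amino acids with 0.17% methionine, and Con is the same kind of diet with 0.86% methionine, and neither diet contains cystine. The paper also lists more glutamic acid in MR than in Con. Lower methionine and higher glutamic acid therefore cannot be told apart in the comparisons of diets. Every mouse, those of the MR groups included, had first been adapted to Con and to a reversed light cycle with no food while the lights were on, and was then fed MR or Con from lights off for 3 h or 6 h. Hours of feeding and hour of the day therefore cannot be told apart in the comparisons of 6 h with 3 h. Each library came from the liver of 1 mouse, made with a kit that reads the 3' ends of messenger RNAs.

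Glutathione is made in the cytosol in a pair of steps. Glutamate-cysteine ligase, a catalytic subunit (Gclc) with a modifier subunit (Gclm), joins glutamate to cysteine, and glutathione synthetase (Gss) adds glycine. Glutathione peroxidases (Gpx1, and Gpx4, which acts on lipid peroxides) oxidize glutathione as they reduce peroxides, and glutathione reductase (Gsr) returns it to the reduced form with NADPH. Inside the cell, Chac1 and Chac2 cleave glutathione to 5-oxoproline and cysteinylglycine, and 5-oxoprolinase (Oplah) turns 5-oxoproline back into glutamate. The liver makes much of the glutathione of the body and exports it, and cysteine derived from methionine is one source of its sulfur. Chac1 is a known target of ATF4, the transcription factor of the response to amino acid shortage, and Gclc and Gclm are known targets of NFE2L2 (NRF2), which acts through antioxidant response elements.

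The promoters of Chac1, the member with the largest difference between diets, of its paralog Chac2 and of Gclm are shown because their letters can be set beside the values that follow. They run from 250 bases before to 50 after a listed start of the gene (RefSeq, GRCm38.p6), 5' to 3' on the strand of the gene. For Gclm this start is base 122245557, and the RefSeq gene as a whole begins at base 122245487. Capitals mark a match to 1 of 2 motifs searched on both strands, TGATGNAA (TTNCATCA on the other strand), the core of elements bound by ATF4 with a C/EBP partner, and TGACNNNGC (GCNNNGTCA), the core of the antioxidant response element.
Chac1, chr2:119350992-119351291, plus strand: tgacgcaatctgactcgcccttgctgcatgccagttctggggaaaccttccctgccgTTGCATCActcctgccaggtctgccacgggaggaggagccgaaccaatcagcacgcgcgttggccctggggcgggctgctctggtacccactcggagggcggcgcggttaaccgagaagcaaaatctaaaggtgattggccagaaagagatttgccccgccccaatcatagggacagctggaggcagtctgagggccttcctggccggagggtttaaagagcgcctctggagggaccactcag
Chac2, chr11:30986316-30986615, minus strand: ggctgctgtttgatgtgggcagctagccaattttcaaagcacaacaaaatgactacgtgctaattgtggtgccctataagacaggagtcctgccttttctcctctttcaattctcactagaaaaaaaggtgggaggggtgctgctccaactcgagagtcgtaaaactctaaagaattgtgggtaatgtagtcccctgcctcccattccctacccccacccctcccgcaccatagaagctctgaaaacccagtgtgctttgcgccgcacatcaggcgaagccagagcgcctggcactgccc
Gclm, chr3:122245307-122245606, plus strand: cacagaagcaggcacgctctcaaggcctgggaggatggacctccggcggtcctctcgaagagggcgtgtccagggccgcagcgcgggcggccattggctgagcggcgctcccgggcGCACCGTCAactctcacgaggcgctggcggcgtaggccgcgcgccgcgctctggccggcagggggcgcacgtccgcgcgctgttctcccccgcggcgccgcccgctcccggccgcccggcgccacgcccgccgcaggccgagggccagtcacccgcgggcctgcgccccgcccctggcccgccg
The window of Chac1 held TTGCATCA at bases -193 to -186 from the start, and the window of Gclm held GCACCGTCA at bases -134 to -126. The window of Chac2 held neither. Of the 9 members 6 had a promoter in the table, in 9 windows, and these were the only matches in them. TGATGNAA was present in 3.97% and TGACNNNGC in 12.4% of 32851 promoters of the same length, and in 2.74% and 17.5% of the 7044 genes of the deposited table with a promoter. A match describes the letters and no more.

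All values are the deposited score, which the authors had scaled to nearly the same total in every library (991702 to 995314) and which was scaled further here by TMM factors of 0.945 to 1.10. They are called units below. Read depth is not known from such a score, so the errors given come from the spread between mice. Libraries of the same group correlated at r of 0.960 or more. All 10 hepatocyte markers were measured, with sums of 145402 to 196769 units. In the MR 3 h mouse 4223, 9 pancreas markers summed to 1676 units, against at most 47.5 in any other library, and in the MR 6 h mouse 4214, 4 adrenal markers summed to 461 units, against at most 4.98 elsewhere. The Con 6 h mouse 4238 lay at 41.3 on the second principal component, against -7.69 to 4.81 in the others, and had the highest sum of 9 Kupffer cell markers (1087 units, against at most 607 elsewhere) and of 4 stellate cell markers (519, against at most 334). Calls that changed without these 3 libraries, and the differences they moved most, are given with and without them. All 9 members were tested in all 24 libraries. No further filter on low values was applied, but the deposited table itself holds no gene with a mean under 3 units over the 24 libraries. Chac1 averaged 9.71 of those units over all libraries and 2.83 over the 18 outside MR 6 h, so it stood above the lowest mean in the table only through MR 6 h, the group in which it was high.

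After 6 h of MR, 2 of the 9 genes were higher than in Con at an adjusted p under 0.05 and none was lower, both of them in the breakdown of glutathione: Chac1, by 3.07 on the log2 scale, and Oplah, by 0.32. Of all 9049 genes 0.74% passed this test in either direction and 0.608% were higher. The 2 calls beside these shares are no test of enrichment. Outside MR 6 h Chac1 averaged 2.83 deposited units, under the lowest mean of 3 in the table. It was thus open to this test only through the group in which it was high. The call of Oplah was lost in 19 of 35 alternative scalings, filters, fits and sets of libraries. After 3 h, 0 of 9 members and 0% of all genes passed, and none of the 9 had an unadjusted p under 0.05. From 3 h to 6 h on MR, 6 of 9 rose and 0 fell (Gclc, Gclm, Gss, Gsr, Chac1 and Chac2), where 28.1% of all genes passed and 13.9% were higher. On Con, 4 of 9 rose over the same hours (Gclc, Gclm, Gsr and Chac2) and 1 fell (Oplah), where 19.6% of all genes passed, 9.23% higher and 10.4% lower. The test was limma on log2 of the score plus 1, with Benjamini-Hochberg adjustment over the 9049 genes, and the fold changes on this scale understate those of genes with few units.

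**Figure D1:**
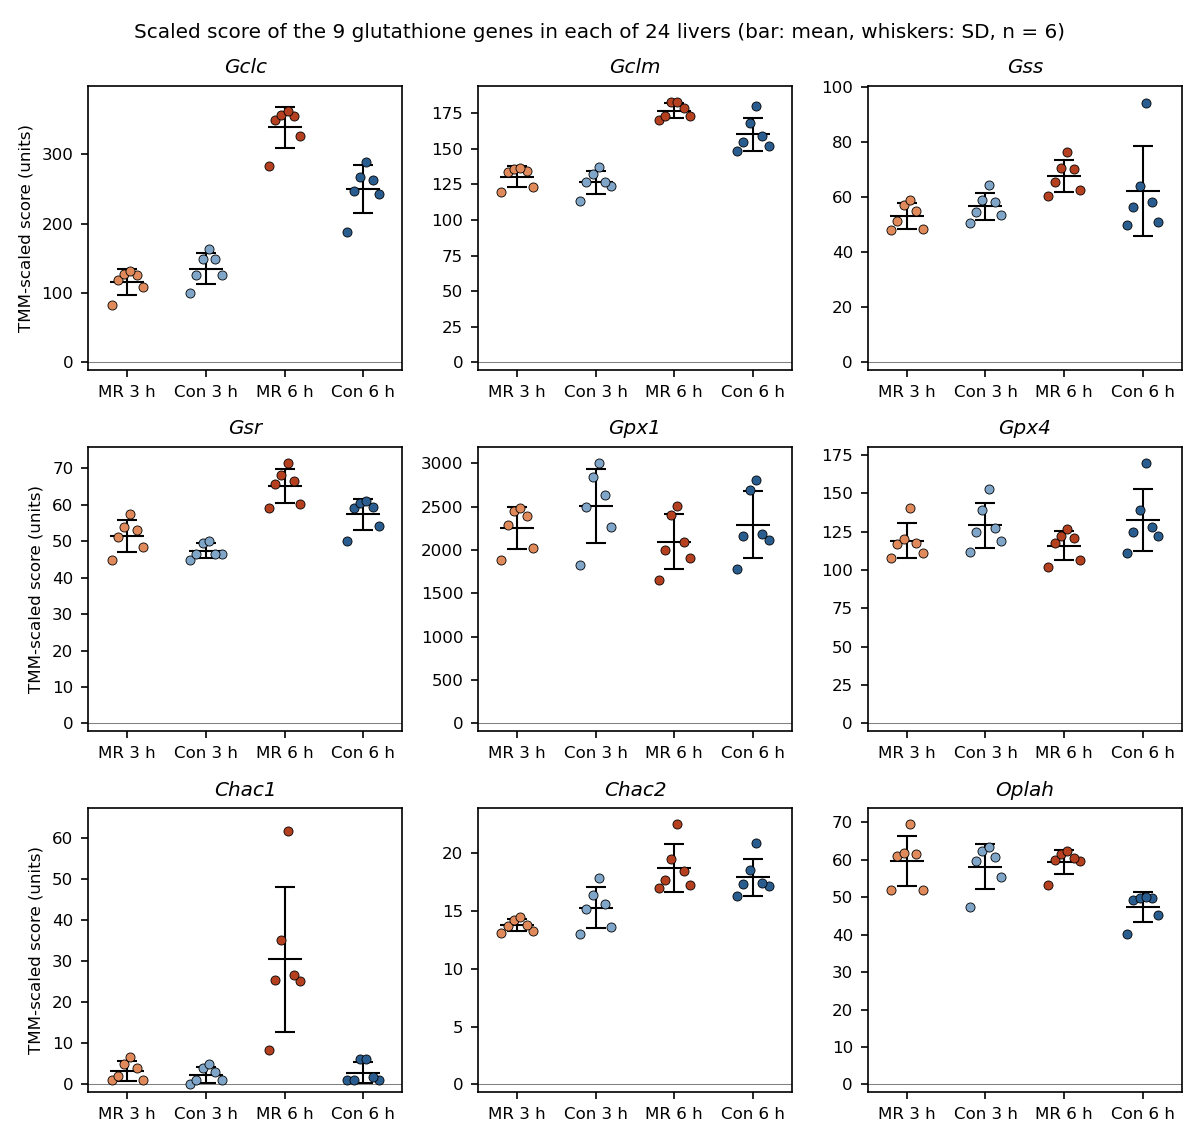
Score of each of the 9 genes in each of 24 livers (vertical axis, TMM-scaled units from 0) for MR 3 h, Con 3 h, MR 6 h and Con 6 h, each point 1 mouse, with the mean as a bar and the SD as whiskers (n = 6). Chac1 stood at 8.47 to 61.7 units in MR 6 h and at 6.74 or less in every other mouse, and Gclc was higher in all mice at 6 h than in any at 3 h.

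Chac1, on chr2:119351229-119354381 (GRCm38), had the largest difference between diets of the 9 genes. In whole liver, more cells that express a gene and more RNA per cell cannot be told apart. At 6 h Chac1 ranged over 8.47, 26.1 and 61.7 units (lowest, median and highest mouse) on MR, against 1.01, 1.43 and 6.11 units on Con, so that the diets did not overlap. The means were 30.5 ± 17.6 units on MR and 2.85 ± 2.54 units on Con (SD, n = 6 each), a ratio of 10.7. On the log2 scale the difference was 3.07 (SE 0.50, 95% interval 2.03 to 4.11, adjusted p = 0.00213 by limma), and an exact two-sided permutation test gave p = 0.00216, the smallest that 6 mice against 6 allow. At 3 h the lowest, median and highest values were 0.977, 2.99 and 6.74 units on MR, against 0, 1.97 and 5.06 on Con, with 1 Con mouse listed at 0, and the groups overlapped. The difference at 3 h was 0.43 (SE 0.50, interval -0.61 to 1.46, adjusted p = 0.866). The upper end of this interval is a 2.76-fold higher score plus 1 on MR, which understates the fold change of a score this low. Chac1 was thus low in 18 livers and raised in the 6 livers of MR 6 h, by 2.86 against MR 3 h (SE 0.50, adjusted p = 1.67e-04 by limma), while Con 6 h against Con 3 h gave 0.22 (SE 0.50, adjusted p = 0.799). The spread in MR 6 h was wide, with the lowest value in mouse 4219 and the highest in mouse 4242. The low groups rest on scores of 0 to 7 before scaling, which the authors rounded to whole numbers, so fold changes against them are coarse. The call at 6 h held under each of 34 alternatives that could test it, with log2 differences of 2.08 to 3.38. Every alternative tested a gene that stood above the lowest mean in the table only through MR 6 h, so none removes that limit. Without the 3 libraries that stand apart the difference was 2.95 (adjusted p = 0.0356).

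Chac2, on chr11:30976707-30986350, cleaves glutathione like Chac1 and is known as the more constant of the pair. At 6 h it lay at 16.9, 18.0 and 22.5 units on MR and at 16.3, 17.3 and 20.8 units on Con, and the diets overlapped. The difference was 0.06 on the log2 scale (SE 0.07, interval -0.09 to 0.21, adjusted p = 0.738 by limma), so an effect of the size seen for Chac1 lay outside the interval. At 3 h the values were 13.1, 13.7 and 14.4 units on MR, against 12.9, 15.4 and 17.8 on Con (log2 difference -0.13, adjusted p = 0.753). With time Chac2 rose on both diets, by 0.41 on MR (SE 0.07, adjusted p = 1.52e-04), where 6 h and 3 h did not overlap, and by 0.22 on Con (SE 0.07, adjusted p = 0.0347), where they did. The rise on Con missed the threshold in 7 of 34 alternatives, among them the fits without the Con 3 h mice 4217, 4218 or 4233 or the Con 6 h mice 4234 or 4241 (adjusted p up to 0.0927).

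Oplah, on chr15:76296601-76328015, encodes the enzyme that returns the 5-oxoproline made by Chac1 and Chac2 to glutamate. At 6 h it stood at 53.1, 60.1 and 62.2 units on MR, against 40.2, 49.5 and 50.0 units on Con, with no overlap. The means were 59.4 ± 3.26 units on MR and 47.4 ± 3.98 units on Con (SD, n = 6 each), and the log2 difference was 0.32 (SE 0.08, interval 0.17 to 0.48, adjusted p = 0.0450 by limma, exact permutation p = 0.00216). At 3 h the diets overlapped, at 51.8, 61.3 and 69.5 units on MR and 47.4, 60.2 and 63.5 units on Con (log2 difference 0.03, adjusted p = 0.937). With time Oplah fell on Con, by 0.29 (SE 0.08, adjusted p = 0.00932), where 5 of 6 mice at 3 h lay above every mouse at 6 h. On MR the difference with time was 0.00 (SE 0.08, interval -0.16 to 0.16, adjusted p = 0.986), and the higher level in MR 6 h than in Con 6 h went with a fall on Con. These comparisons share mice, and the direct test of a different time course on the diets did not pass (0.29, SE 0.11, adjusted p = 0.637 by limma). The call between diets at 6 h lay close to the threshold and was lost in 19 of 35 alternatives, with adjusted p from 0.0168 to 0.195 and log2 differences of 0.28 to 0.36. Without the 3 libraries that stand apart the difference was 0.28 (adjusted p = 0.195), and without mouse 4238 alone, the lowest of Con 6 h, it was also 0.28 (adjusted p = 0.108). The call was lost without any 1 of 17 mice: 4214, 4219, 4228, 4229 and 4242 of MR 6 h, 4221, 4222, 4231, 4234 and 4238 of Con 6 h, 4208, 4209 and 4223 of MR 3 h, and 4205, 4215, 4217 and 4218 of Con 3 h.

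Gclc, on chr9:77754535-77794485, is the catalytic subunit of the first and rate-limiting step. It had the largest change with time among the synthesis genes. On MR it ranged over 284, 352 and 362 units at 6 h, against 82.1, 123 and 132 units at 3 h, and on Con over 187, 255 and 289 units at 6 h, against 100, 137 and 164 units at 3 h, with no overlap between hours on either diet. The rise was 1.55 on the log2 scale on MR (SE 0.12, adjusted p = 3.47e-09 by limma, 2.94-fold) and 0.88 on Con (SE 0.12, adjusted p = 1.91e-05, 1.84-fold). Between diets at 6 h, 5 of 6 MR mice lay above every Con mouse and the means were 339 ± 29.8 units on MR and 249 ± 34.5 units on Con (SD, n = 6 each). This difference of 0.45 (SE 0.12, interval 0.20 to 0.69) had an exact permutation p of 0.00433 but did not pass over all genes (adjusted p = 0.0808). It passed only in the fit without the MR 3 h mouse 4204 (adjusted p = 0.0377), of 35 alternatives. At 3 h Gclc gave -0.22 (SE 0.12, interval -0.47 to 0.02, adjusted p = 0.741), with the groups overlapping.

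Gclm, on chr3:122245557-122270732, the modifier subunit that raises the activity of Gclc, also rose with time on both diets, by less than Gclc. At 6 h it stood at 171, 176 and 183 units on MR and 148, 157 and 180 units on Con, and at 3 h at 120, 134 and 137 units on MR and 113, 126 and 137 units on Con. Every mouse at 6 h was above every mouse at 3 h on the same diet, and the diets overlapped at both hours. Gclm rose with time by 0.44 on MR (SE 0.05, adjusted p = 1.92e-06 by limma) and by 0.34 on Con (SE 0.05, adjusted p = 1.04e-04). Between diets it gave 0.14 at 6 h (SE 0.05, interval 0.03 to 0.25, adjusted p = 0.241, exact permutation p = 0.0173) and 0.04 at 3 h (adjusted p = 0.872). The score of Gclc divided by that of Gclm was 1.92 ± 0.195 in MR 6 h, 1.55 ± 0.164 in Con 6 h, 0.887 ± 0.142 in MR 3 h and 1.07 ± 0.134 in Con 3 h (SD, n = 6 each). The 2 scores are not corrected for how well each transcript is captured, so only the change of this ratio between groups can be read.

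Gss, on chr2:155563181-155592810, adds glycine in the last step. It stood at 60.4, 67.7 and 76.2 units in MR 6 h and at 47.9, 53.2 and 59.1 units in MR 3 h, with no overlap, a rise of 0.34 (SE 0.11, adjusted p = 0.0194 by limma). This call was lost without the MR 6 h mouse 4219 (adjusted p = 0.0506) and without scaling beyond the deposited table (0.0561). On Con the values were 50.0, 57.4 and 94.0 units at 6 h, against 50.6, 56.4 and 64.5 units at 3 h, and overlapped (0.10, SE 0.11, adjusted p = 0.528). The highest Con 6 h value was that of mouse 4238, and the other 5 lay between 50.0 and 64.0 units. Without that mouse the difference with time on Con was -0.02. Between diets Gss gave 0.15 at 6 h (SE 0.11, interval -0.08 to 0.37, adjusted p = 0.544) and -0.09 at 3 h (adjusted p = 0.870). The difference at 6 h was 0.27 without mouse 4238 (adjusted p = 0.128) and 0.26 without the 3 libraries that stand apart (adjusted p = 0.219), and passed in neither.

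Gsr, on chr8:33652523-33698163, recycles oxidized glutathione. At 6 h its values were 59.2, 66.1 and 71.6 units on MR and 50.2, 59.2 and 60.9 units on Con, and at 3 h 45.0, 52.1 and 57.5 units on MR and 44.8, 46.6 and 50.2 units on Con. Both diets had higher values at 6 h than at 3 h in every mouse, by 0.34 on MR (SE 0.06, adjusted p = 1.92e-04 by limma) and by 0.27 on Con (SE 0.06, adjusted p = 0.00295). On Con the nearest values were 50.21 units at 6 h (mouse 4238) and 50.16 units at 3 h (mouse 4205). That gap is smaller than the rounding of the score, so the lack of overlap on Con is marginal. Between diets, 4 of 6 MR mice lay above every Con mouse at each hour, and the differences of 0.18 at 6 h (SE 0.06, adjusted p = 0.188, exact permutation p = 0.0238) and 0.12 at 3 h (SE 0.06, adjusted p = 0.741, exact permutation p = 0.0671) did not pass over all genes. The lowest Con 6 h value was that of mouse 4238. The difference at 6 h was 0.12 when the 3 libraries that stand apart were left out (adjusted p = 0.540).

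For the peroxidases no comparison passed the test. Gpx1, on chr9:108338903-108340343, stood at 1649, 2047 and 2506 units in MR 6 h, at 1777, 2176 and 2807 units in Con 6 h, at 1885, 2338 and 2481 units in MR 3 h and at 1823, 2568 and 2998 units in Con 3 h. All 4 groups overlapped, and the log2 differences were -0.13 between diets at 6 h (interval -0.38 to 0.13, adjusted p = 0.652 by limma), -0.14 at 3 h, -0.11 between hours on MR and -0.13 on Con. Gpx4, on chr10:80047166-80056439, stood at 102, 119 and 127 units in MR 6 h, at 111, 126 and 170 units in Con 6 h, at 108, 117 and 141 units in MR 3 h and at 112, 126 and 153 units in Con 3 h. Its diets overlapped at both hours, with -0.18 at 6 h (interval -0.37 to 0.00, adjusted p = 0.353, exact permutation p = 0.0844) and -0.11 at 3 h, and the hours differed by -0.04 on MR and 0.03 on Con. The highest Con 6 h value of Gpx4 was again that of mouse 4238, without which the difference at 6 h was -0.11 for Gpx4 and -0.08 for Gpx1. The part of the Kupffer and stellate cell markers raised in that liver in its values of Gss, Gpx4, Gsr and Oplah was not tested.

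**Figure D2:**
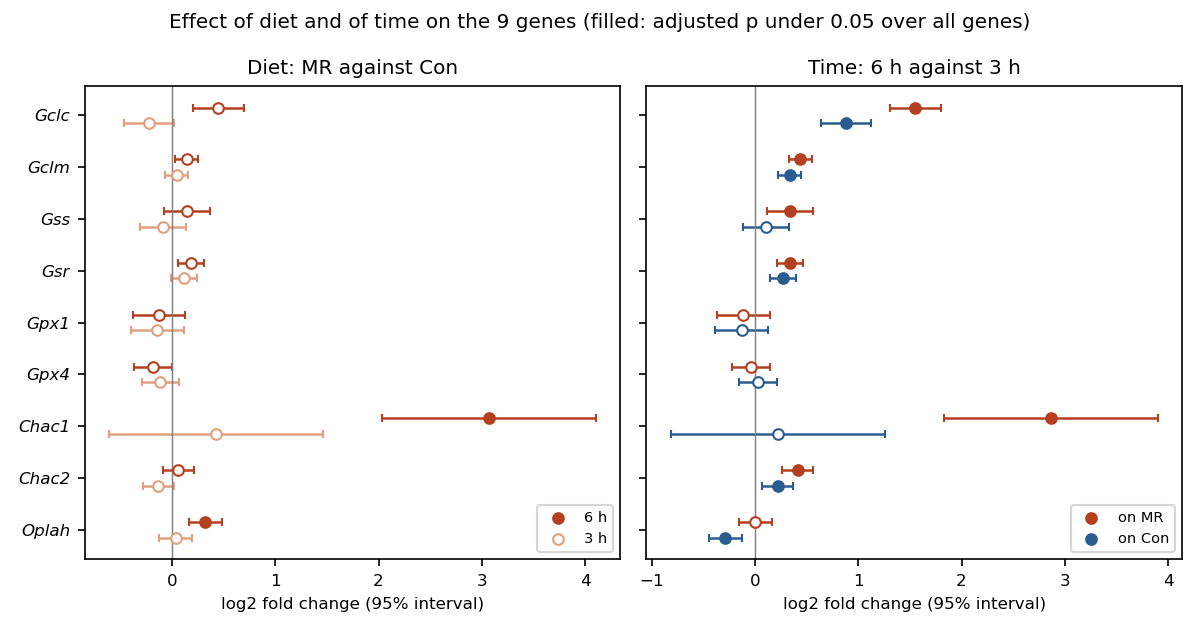
Log2 fold changes with 95% intervals (horizontal axis) for the 9 genes, left for MR against Con at 6 h and 3 h, right for 6 h against 3 h on MR and on Con, filled where the adjusted p was under 0.05. Between diets only Chac1 (3.07) and Oplah (0.32) at 6 h are filled, and with time Gclc shows 1.55 on MR and 0.88 on Con while Oplah lies at 0.00 on MR and at -0.29 on Con.

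Whether diet acted differently at 6 h and at 3 h was tested as an interaction. It passed for 0 of 9 members (0.0663% of all genes, 6 in number, passed) with limma, while 3 of 9 had an unadjusted p under 0.05. These were Gclc (0.67, SE 0.17, adjusted p = 0.272), Chac1 (2.64, SE 0.71, adjusted p = 0.272) and Oplah (0.29, SE 0.11, adjusted p = 0.637). So the time courses on the diets are not shown to differ for any of the 9 genes over all genes tested. The median over the 9 genes was 0.15 for diet at 6 h, -0.09 for diet at 3 h, 0.34 for time on MR and 0.22 for time on Con, against 0.01, 0.00, -0.01 and -0.01 over all genes. These comparisons share groups of mice and are not independent.

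Some of the genes lie over a neighbour on the opposite strand at their 3' end in GENCODE M21: Gss over Acss2, Chac2 over Asb3, Oplah over Smpd5 and Gclm over Gm17494. Whether the counting used strand is not given in the sources used here, and without strand the reads of such a pair cannot be told apart. Oplah also lies over Exosc4, away from its 3' end. Of these neighbours Acss2, Asb3 and Exosc4 were measured. Acss2, which makes acetyl-CoA from acetate, had 172 ± 46.7 units in MR 6 h, 156 ± 67.3 in Con 6 h, 74.0 ± 7.22 in MR 3 h and 82.3 ± 14.3 in Con 3 h (SD, n = 6 each). Like Gss it rose with time on MR, by 1.16 (SE 0.30, adjusted p = 0.00488 by limma). In mouse 4238 Acss2 was lowest of its group (37.4 units) and Gss was highest. Asb3 stayed at or below 5.09 units in every mouse. Exosc4, a subunit of the RNA exosome, had 4.23 ± 1.11 units in MR 6 h, 3.63 ± 1.17 in Con 6 h, 4.29 ± 0.944 in MR 3 h and 5.79 ± 2.01 in Con 3 h (SD, n = 6 each). Like Oplah it fell with time on Con, by 0.54 (SE 0.19, adjusted p = 0.0444 by limma), and gave -0.02 on MR (adjusted p = 0.939), and its highest level in any mouse was 8.96 units, against a lowest of 40.2 units for Oplah. The part of reads from neighbours in the values of Gss, Chac2, Oplah and Gclm was not tested.

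Genes around these 9 were taken as 6 lists of 80 genes, of which 62 were measured. The lists were chosen with earlier results of these data known. Their counts beside the shares over all genes are therefore no test of enrichment. At 6 h, 7 of the 62 were higher on MR than on Con and 0 lower, where 0.74% of all genes passed, and at 3 h none passed. With time on MR 25 rose and 1 fell, where 28.1% of all genes passed, and with time on Con 6 rose and 4 fell, where 19.6% of all genes passed. The 9 measured genes that supply cysteine and glycine all had positive differences between diets at 6 h (median 0.38, against 0.01 over all genes), and 3 of 9 passed. They were Slc38a2, a neutral amino acid transporter (0.87, SE 0.11, adjusted p = 9.11e-05), Psat1, of serine synthesis (1.98, SE 0.31, adjusted p = 0.00158), and Slc3a2, the heavy chain of amino acid exchangers that include the cystine carrier (0.38, SE 0.08, adjusted p = 0.0248). Psat1 averaged 1.49 units in MR 3 h, 1.33 in Con 3 h and 5.41 in Con 6 h, against 23.7 in MR 6 h. Its place among genes with a mean of at least 3 units thus rested largely on MR 6 h, the group in which it was high. With time on MR all 9 supply genes rose (median 0.70), where 13.9% of all genes did, and on Con 4 did (Cbs, Slc1a4, Psat1 and Psph), where 9.23% of all genes did. Slc7a11, the cystine carrier itself, was on the list but was not among the genes of the deposited table.

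Of 18 further glutathione-dependent and thiol redox enzymes 1 passed between diets at 6 h, where 0.74% of all genes did. This was Txnrd1, cytosolic thioredoxin reductase (0.25, SE 0.05, adjusted p = 0.0265). Of 12 regulators 3 were higher on MR at 6 h, where 0.608% of all genes were, and these counts are no test of enrichment. The 3 regulators were Trib3, an inhibitory partner of ATF4 (1.43, SE 0.11, adjusted p = 1.81e-08), Cebpg, a C/EBP partner of ATF4 (0.42, SE 0.08, adjusted p = 0.00848), and Nfe2l1, a relative of NFE2L2 (0.33, SE 0.07, adjusted p = 0.0173). Keap1, the repressor of NFE2L2, gave 0.26 (SE 0.07, adjusted p = 0.0841). Atf4 itself gave 0.43 and Nfe2l2 itself gave 0.01, and neither passed. Trib3 was also the 1 gene of the 62 with an interaction of diet and time (1.43, SE 0.16, adjusted p = 2.05e-05). It averaged 2.65 units in MR 3 h, 2.64 in Con 3 h and 3.83 in Con 6 h, against 11.98 in MR 6 h. Outside MR 6 h Trib3 thus lay near the lowest mean of 3 units in the table. Its low groups rest on scores rounded to whole numbers, so fold changes against them are coarse. None of 7 genes of the gamma-glutamyl cycle and export, of 8 that make NADPH and of 8 of selenoprotein synthesis, which Gpx1 and Gpx4 need, passed between diets at either hour. With time on MR, where 13.9% of all genes rose, 5 of 7 genes of the gamma-glutamyl cycle and export did, among them Ggct, which releases 5-oxoproline from gamma-glutamyl amino acids (0.37, SE 0.09, adjusted p = 0.00414), and Abcc2, an exporter of glutathione and its conjugates into bile (0.57, SE 0.12, adjusted p = 8.64e-04). Of the NADPH genes 5 of 8 rose over the same hours, among them Idh1 (0.46, SE 0.08, adjusted p = 1.95e-04).

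**Figure D3:**
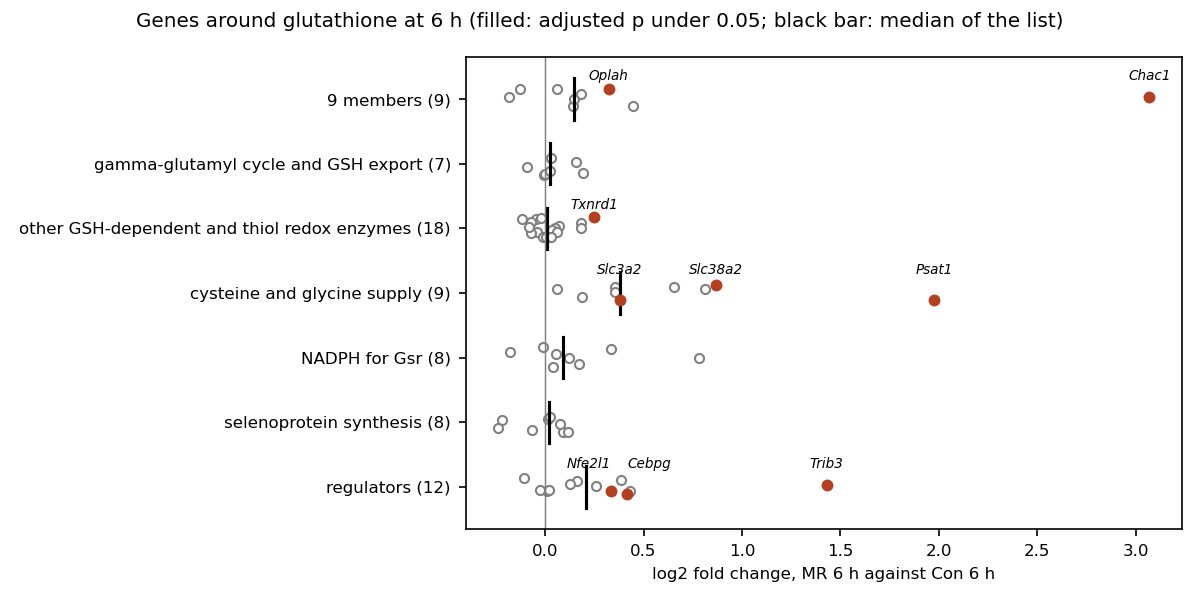
Log2 fold change of MR 6 h against Con 6 h (horizontal axis) for the 9 genes and for the 6 lists around them (rows, with the number measured), filled and named where the adjusted p was under 0.05, with the median of each list as a black bar. Chac1 lies at 3.07, and the cysteine and glycine supply genes have a median of 0.38.

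The genes whose pattern was most like that of Chac1 over the 24 libraries, by Pearson's r of log2 values, were Slc38a2 (0.90), Fgf21, a hormone secreted by the liver (0.86), Ikbkg, a subunit of the kinase complex upstream of NF-kB (0.83), Trib3 (0.81) and Ddit4, an inhibitor of mTORC1 (0.80). Each of the 5 was higher in MR 6 h than in Con 6 h, as Chac1 was, with Fgf21 at 3.20 and Ddit4 at 1.38, so these r values follow in part from that difference, and libraries of a group are not separate conditions. Over the 12 libraries of 6 h Slc38a2 (0.94) was again first, with Usp19 (0.93), Fgf21 (0.90), Rcor1 (0.90) and Trib3 (0.89) next. In mouse 4219, the lowest of MR 6 h for Chac1, Slc38a2, Fgf21, Ikbkg and Ddit4 were also the lowest of that group, and Trib3 was not. For Oplah the nearest genes were others, Usp19 (0.87), Nploc4 (0.86), Atp13a1 (0.83), Srrt (0.83) and Ptk2b (0.83) over 24 libraries and Ern1 (0.94), Tfr2 (0.93), Sqstm1 (0.92), Nploc4 (0.91) and Setd1a (0.91) over 12. The motif TGATGNAA printed in the promoter of Chac1 was present in 2 of the 5 genes most like it over 24 libraries, Fgf21 and Trib3, and in 9 of the 47 genes higher in MR 6 h that had a promoter (19.1%, against 2.74% of the genes of the table). Those 47 genes were called in these same data and include Chac1, Fgf21 and Trib3, so these shares are no test of enrichment.

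**Figure D4:**
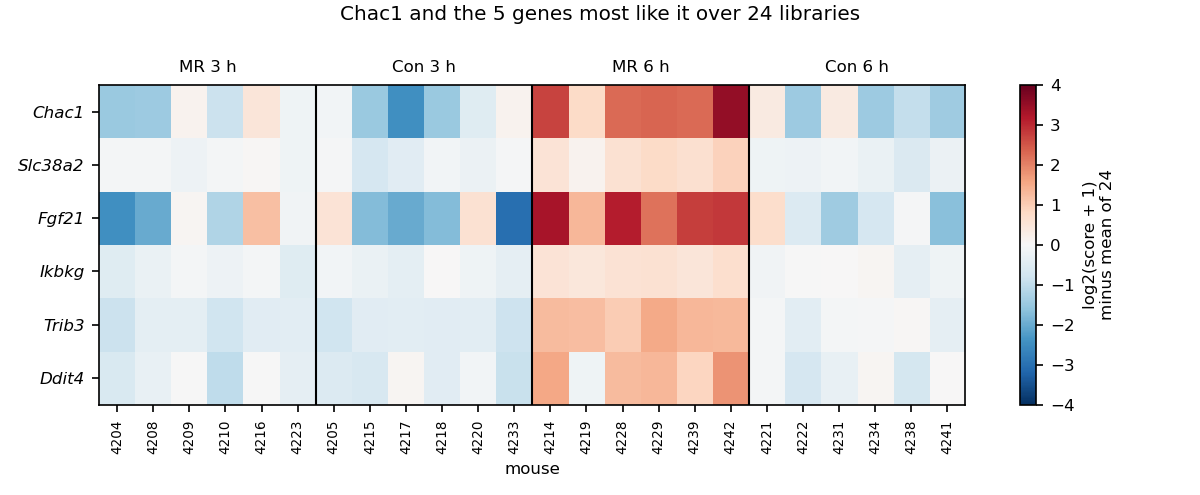
Heat map of log2(score + 1) minus the mean of 24 libraries (colour scale, -4 to 4) for Chac1 and the 5 genes most like it (rows) in each mouse (columns), grouped as MR 3 h, Con 3 h, MR 6 h and Con 6 h. The 6 columns of MR 6 h are raised for Chac1, least in mouse 4219, and lower elsewhere.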

How the data were processed

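RNA of 24 livers, 1 library per mouse, was made into Lexogen QuantSeq 3' libraries and sequenced by the authors with 50 bp forward reads. The paper's methods name the Lexogen Quantseq pipeline on Bluebee for mapping and read counts, followed by CLC Genomics Workbench, and GRCm38 and DESeq2 1.22.2 stand in the submitters' processing notes. No source used here gives the aligner settings, the gene filter or the use of strand. The deposited table used is named raw counts, yet its columns sum to 991702 to 995314, so it was read as a score, scaled by the authors to a common total and rounded to whole numbers. The second deposited table holds the same score divided by 1 size factor per library (0.949 to 1.08). Depth is not known, so no counting interval is given.

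Groups came from the labels, and each column was matched by its mouse number. The score was scaled by TMM factors, trimming 30% of log ratios and 5% of mean values at either end, and tested in limma 3.58.1 (R 4.3.3, statmod 1.5.0) on log2 of the value plus 1. The model had 4 group means over 24 libraries, and the prior variance followed the mean and was fitted robustly. Adjusted p-values are Benjamini-Hochberg over 9049 genes, with a threshold of 0.05. Exact two-sided permutation tests of single genes (36 run) used all 924 divisions of 12 mice. The procedure was tested on simulated data. The text names all 9 members, up to 4 genes with the smallest p of each list around them in a comparison, and the 5 genes of highest r for Chac1 and Oplah. Neighbours on the opposite strand, Slc7a11, Atf4 and Nfe2l2 were named outside this rule. The members and lists were chosen with earlier results of these data known. Promoters came from RefSeq (GRCm38.p6) by symbol, which gave none for Gclc, Gsr and Oplah. Gene positions are those of GENCODE M21. Alternatives were other scalings, pseudocounts, filters, fits and leaving out libraries.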

Additional observations from a re-analysis of the deposited data

Results flagged for a closer look

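In each gene and group the highest and the lowest of the 6 mice were compared with the rest, and a mouse was noted where its gap to the nearest other mouse exceeded Dixon's critical share of the range of the group. Of 36 such sets 2 held one, and chance gives about 1 in 20. Gss in the Con 6 h mouse 4238 was 94.0 units, against 64.0 in the next highest mouse, a gap of 0.682 of the range. Oplah in the MR 6 h mouse 4239 was 53.1 units, against 59.7 in the next lowest mouse, a gap of 0.721 of the range, and still above all Con 6 h mice.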

How the results depend on the processing

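Of the 9 members 2 were higher in MR 6 h than in Con 6 h. The count was 1 with only genes of a mean of at least 20 units (Chac1 and Chac2 were then not tested), with only the 12 libraries compared, and without the 3 libraries that stand apart, and 1 to 3 when each mouse was left out in turn. Over all genes 67 passed at 6 h, with 31 from the 12 libraries, 116 with array weights, 22 without the 3 libraries and 33 to 78 without 1 mouse. For the interaction 6 passed, with 3 without trend and robust prior, 3 with array weights, 2 without the 3 libraries and 3 to 8 without 1 mouse. With time, 1774 passed on Con (832 at a mean of at least 20 units, 1163 from 12 libraries) and 2544 on MR (1180 at a mean of at least 20 units). The cause was not tested beyond the fewer genes or libraries in some of these fits. Log2 differences that turned were all of uncalled comparisons. With array weights Gpx4 gave -0.00421 with time on Con and Oplah -0.0039 with time on MR, without the 3 libraries Gpx4 gave -0.0421 and Gss -0.0199 with time on Con, and without further scaling Oplah gave -0.0217 with time on MR. When each mouse was left out in turn, the range was -0.023 to 0.0717 for Oplah between diets at 3 h, -0.0514 to 0.107 for Gpx1 and -0.12 to 0.00362 for Gpx4 in the interaction, -0.0775 to 0.442 for Chac1, -0.0199 to 0.16 for Gss and -0.0421 to 0.0811 for Gpx4 with time on Con, and -0.0657 to 0.00993 for Gpx4 and -0.0361 to 0.0472 for Oplah with time on MR. No paired analysis was possible because the mice of different groups share no numbers. Rounded scores of a few units limit what can be read from Chac1 outside MR 6 h.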
